A study of Mus musculus with 14 samples.

Results

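The NADPH oxidase subunits described here are 7 genes, Cybb, Cyba, Ncf1, Ncf4, Rac2, Nox4 and Hvcn1, of the 46904 genes listed for the mouse brain libraries of the study, and they were chosen by their symbols. All 7 were measured and passed the filter on low values. The study asked how deficiency in the neuropeptide cortistatin changes the response of the brain to stroke, and compared male wild-type mice (Cort+/+) with mice lacking the Cort gene (Cort-/-), both on a C57BL/6J background and 12 weeks old. Middle cerebral artery occlusion (MCAO) of the left hemisphere lasted 20 min, and 48 h later RNA was taken from the ischemic hemisphere (MCAO) and from the contralateral, non-occluded hemisphere (CL) of the operated animals. Libraries comprised 3 Cort+/+ CL, 3 Cort+/+ MCAO (replicate numbers 2, 3 and 4), 3 Cort-/- CL and 5 Cort-/- MCAO replicates. The authors describe 3 CL and 5 MCAO independent biological replicates, so some Cort+/+ MCAO replicates are not among these libraries. They also state that, where replicates varied widely, only those that grouped clearly were kept. Whether this was done for the Cort+/+ MCAO group is not stated. Which CL and MCAO libraries come from the same mouse is not given in the sources used here.

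The phagocyte oxidase moves electrons from NADPH across a membrane to oxygen and so makes superoxide, which microglia, macrophages and neutrophils release against microbes and which can also injure tissue. Its membrane core pairs the catalytic subunit encoded by Cybb with the partner encoded by Cyba. On stimulation, cytosolic subunits, those of Ncf1 and Ncf4 among them, and a Rac GTPase join this core and switch it on. Nox4 is a related catalytic protein that needs only the Cyba product and gives mainly hydrogen peroxide. The proton channel encoded by Hvcn1 carries out the charge that the oxidase leaves inside the cell.

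Expression was given as RPKM, in which reads are divided by the length of the gene and the size of the library, so levels can be set side by side between genes. The libraries held between 25989843 and 43032536 reads recovered from these values. Cort held 64 to 139 reads in every Cort+/+ library and 0 to 4 reads in every Cort-/- library. Markers of neurons were present in all libraries (summed level of 1720 to 2340 RPKM). Differences below are on the scale of log2(RPKM + 0.1), which understates the change of low genes such as Cybb and Nox4. Adjusted p-values are from limma with Benjamini-Hochberg adjustment over the 46102 genes tested. The limma model takes the libraries as independent, although CL and MCAO libraries may share a mouse. In RNA from whole hemispheres, more cells that express a gene and more RNA per cell cannot be told apart.

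Over both genotypes, 5 of the 7 subunits were higher in MCAO than in CL hemispheres (limma adjusted p under 0.05), against 2.52% of all genes tested that were called higher in the same comparison. These were the membrane core genes Cybb and Cyba and the genes of the cytosolic side, Rac2, Ncf4 and Ncf1. The 7 differences were all positive, with a median of 1.30, while the median of all genes was 0.0001. Hvcn1 and Nox4 did not pass, but Hvcn1 did under other settings, given with its levels. Within Cort-/- mice, 3 of the 7 (Cybb, Cyba and Rac2) were called higher, where 1.34% of all genes were. This count was 0 without Cort-/- CL replicate 1 or 3 or Cort-/- MCAO replicate 1, 4 or 5, 1 without Cort-/- CL replicate 2, 2 (without Cybb) with a pseudocount of 0.5 or with a model of the Cort-/- libraries alone, and 6 without Cort-/- MCAO replicate 3, with limma voom on the recovered reads or with a filter on mean RPKM. Within Cort+/+ mice limma at an adjusted p under 0.05 called none of the 7 and 0.00868% of all genes higher, and limma voom on the recovered reads called none of the 7 either. At an unadjusted p under 0.05 there were 5 of the 7, against 7.87% of all genes tested. The authors, with edgeR, reported more genes called in each genotype. The small share of adjusted calls here thus does not show that Cort+/+ hemispheres hardly responded. Every MCAO library lay above every CL library for 3 of the 7 in Cort+/+ mice (Cybb, Ncf4 and Rac2) and for 6 of the 7 in Cort-/- mice, all but Nox4. Over all genes tested this held for 5.73% and 4.85%. The plot of the levels by library shows these values.

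**Figure D1:**
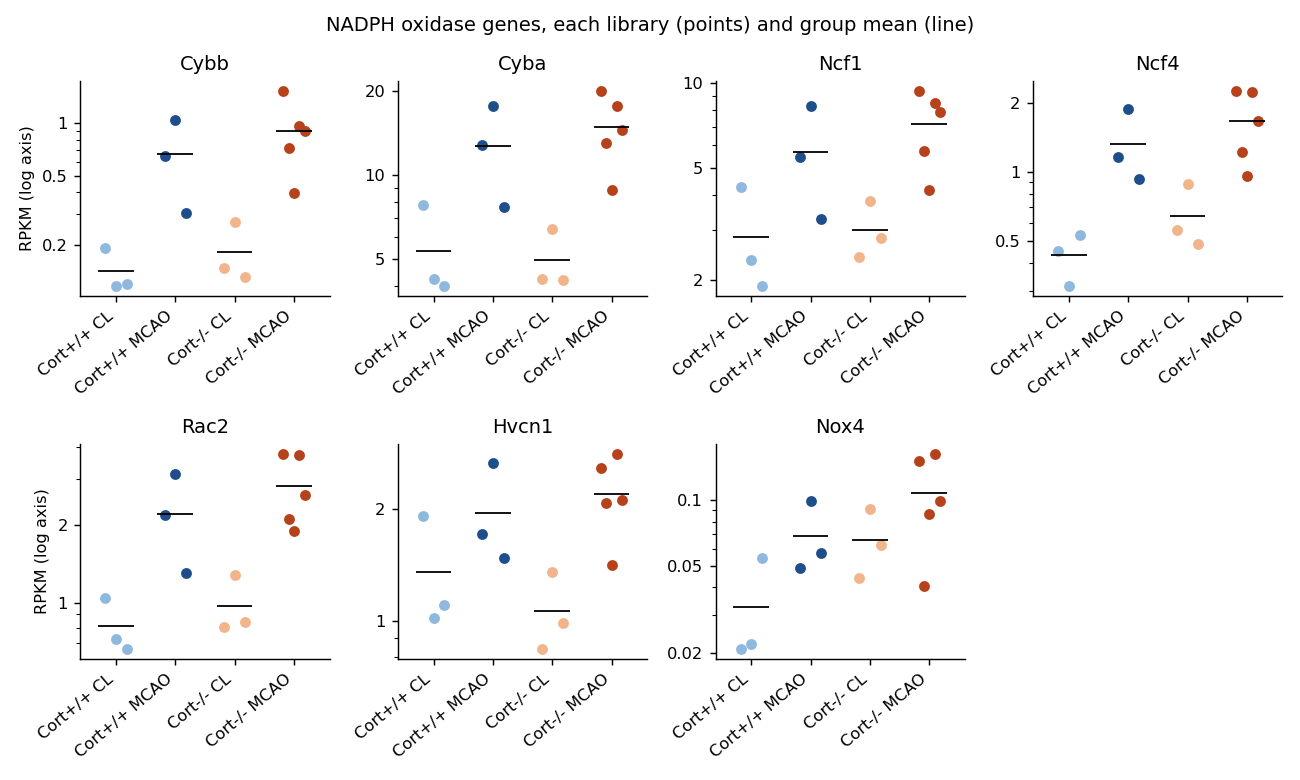
RPKM (log axis, own range in each panel) of the 7 oxidase genes in each library (points) of the 4 groups, with the group mean as a line. In both genotypes Cybb, Ncf4 and Rac2 were higher in every MCAO library than in any CL library, and Nox4 overlapped between the hemispheres.

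Cybb encodes the catalytic subunit, which holds the heme and flavin groups that carry the electrons. It lies on the reverse strand of chromosome X between positions 9301491 and 9354010 of GRCm39. Its levels were 0.191, 0.116 and 0.118 RPKM in the Cort+/+ CL libraries and 0.650, 1.05 and 0.306 RPKM in the Cort+/+ MCAO libraries. In Cort-/- mice they were 0.147, 0.272 and 0.130 RPKM in CL and 1.53, 0.722, 0.398, 0.963 and 0.900 RPKM in MCAO hemispheres. The hemispheres did not overlap in either genotype, and the highest CL library of each genotype came closest to the lowest MCAO library. Mean expression was 4.71 times higher in MCAO than in CL hemispheres of Cort+/+ mice and 4.94 times in Cort-/- mice. Over both genotypes the difference was 1.66 (standard error 0.28, limma adjusted p = 0.00708), with 1.56 in Cort+/+ (adjusted p = 0.285) and 1.76 in Cort-/- mice (adjusted p = 0.0373). Cybb rested on 19 to 43 reads in the CL and 45 to 317 reads in the MCAO libraries.

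Cyba encodes the smaller membrane partner, which holds the catalytic subunit in place and is shared with Nox4. It lies on the reverse strand of chromosome 8 (123150422 to 123159706). Its levels were 7.82, 4.24 and 4.0 RPKM in Cort+/+ CL and 12.8, 17.6 and 7.69 RPKM in Cort+/+ MCAO libraries. Those of Cort-/- mice were 4.25, 6.43 and 4.19 RPKM in CL and 19.9, 13, 8.85, 17.6 and 14.4 RPKM in MCAO libraries. Cort+/+ MCAO replicate 4 fell below Cort+/+ CL replicate 1, whereas the hemispheres of Cort-/- mice did not overlap. Mean expression was 2.38 times higher in MCAO hemispheres of Cort+/+ and 2.98 times in those of Cort-/- mice. The difference over both genotypes was 1.38 (standard error 0.23, limma adjusted p = 0.00670), and it was 1.22 in Cort+/+ (adjusted p = 0.319) and 1.53 in Cort-/- mice (adjusted p = 0.0295).

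The 250 bases before the transcription start of the canonical transcript were read from GRCm39 for both core genes, since both were called over both genotypes, and were searched on both strands for 3 motifs. These were GAGGAA (the Ets family core found in PU.1 sites), TGANTCA (AP-1) and GAAA followed by any 2 bases and GAAA again (interferon-stimulated response element). Among 21770 promoters of this length, 22.9% held the first, 6.17% the second and 3.32% the third. The Cybb stretch (chrX:9335571-9335820, reverse strand) held 3 matches to the response element and 1 to AP-1, printed in capitals, which did not overlap each other. The Cyba stretch (chr8:123159707-123159956, reverse strand) held no match to these letters. Sequences are given 5′ to 3′ along each gene, and a match is a description of the letters only.
Cybb promoter: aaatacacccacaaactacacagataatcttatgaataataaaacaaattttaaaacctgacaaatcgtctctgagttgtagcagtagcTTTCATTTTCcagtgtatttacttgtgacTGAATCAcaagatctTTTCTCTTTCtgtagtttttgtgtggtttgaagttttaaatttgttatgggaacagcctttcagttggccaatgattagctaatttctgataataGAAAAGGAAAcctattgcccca
Cyba promoter: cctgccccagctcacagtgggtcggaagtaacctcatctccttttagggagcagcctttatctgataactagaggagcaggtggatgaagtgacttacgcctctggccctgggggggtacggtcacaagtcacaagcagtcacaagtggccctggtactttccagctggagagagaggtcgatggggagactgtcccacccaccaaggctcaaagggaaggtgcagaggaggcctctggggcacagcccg

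Ncf1 encodes the organiser of the cytosolic complex, which bridges it to the membrane core. It lies on the reverse strand of chromosome 5 (134248907 to 134258479). Its levels were 4.28, 2.36 and 1.90 RPKM in Cort+/+ CL and 5.46, 8.30 and 3.30 RPKM in Cort+/+ MCAO libraries. The Cort-/- libraries had 2.42, 3.82 and 2.81 RPKM in CL and 9.38, 5.71, 4.18, 8.52 and 7.87 RPKM in MCAO libraries. As for Cyba, Cort+/+ MCAO replicate 4 lay below Cort+/+ CL replicate 1, and only the Cort-/- hemispheres were separate. The difference over both genotypes was 1.07 (standard error 0.25, limma adjusted p = 0.0338). By genotype it was 0.96 in Cort+/+ (adjusted p = 0.525) and 1.18 in Cort-/- mice (adjusted p = 0.106). The call over both genotypes rested on single libraries, since it held in 5 of the 14 fits that left out 1 library. It was lost without Cort+/+ CL replicate 2 or 3, Cort+/+ MCAO replicate 2 or 3, Cort-/- CL replicate 1 or 3, or Cort-/- MCAO replicate 1, 4 or 5, with an adjusted p of up to 0.092.

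Ncf4 encodes the cytosolic subunit that binds a phosphoinositide of phagosome membranes. It lies on the forward strand of chromosome 15 (78128982 to 78146784). Its levels were 0.452, 0.316 and 0.531 RPKM in Cort+/+ CL and 1.16, 1.87 and 0.927 RPKM in Cort+/+ MCAO libraries. Those of Cort-/- mice were 0.555, 0.883 and 0.485 RPKM in CL and 2.26, 1.23, 0.956, 2.24 and 1.67 RPKM in MCAO libraries. No MCAO library reached down to a CL library of its genotype, and the narrowest gap was between Cort-/- CL replicate 2 and Cort-/- MCAO replicate 3. Mean expression was 3.05 times higher in MCAO hemispheres of Cort+/+ and 2.61 times in those of Cort-/- mice. The difference was 1.30 over both genotypes (standard error 0.22, limma adjusted p = 0.00712), 1.38 in Cort+/+ (adjusted p = 0.232) and 1.23 in Cort-/- mice (adjusted p = 0.0615).

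Rac2 encodes the Rac GTPase of the hematopoietic lineage. It lies on the reverse strand of chromosome 15 (78443367 to 78457429). Its levels were 1.04, 0.723 and 0.662 RPKM in Cort+/+ CL and 2.18, 3.14 and 1.31 RPKM in Cort+/+ MCAO libraries. The Cort-/- libraries had 0.802, 1.28 and 0.844 RPKM in CL and 3.78, 2.11, 1.89, 3.74 and 2.62 RPKM in MCAO libraries. The hemispheres were separate in both genotypes. Mean expression was 2.73 times higher in MCAO hemispheres of Cort+/+ and 2.90 times in those of Cort-/- mice. The difference was 1.35 over both genotypes (standard error 0.22, limma adjusted p = 0.00527), 1.29 in Cort+/+ (adjusted p = 0.257) and 1.42 in Cort-/- mice (adjusted p = 0.0295).

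The same stretch of 250 bases was read for the cytosolic subunits and the GTPase, the other 3 genes called over both genotypes. The Ncf1 stretch (chr5:134258480-134258729, reverse strand) held 1 match to the response element, so that the letters of this element were found in 2 of the 7 oxidase genes, Cybb and Ncf1. The Ncf4 stretch (chr15:78128732-78128981, forward strand) held 2 matches to GAGGAA. The Rac2 stretch (chr15:78457430-78457679, reverse strand) held 5, all on the strand opposite to the gene and in a run rich in C and T. Hvcn1 and Nox4 held none of the 3 motifs. Matches are in capitals.
Ncf1 promoter: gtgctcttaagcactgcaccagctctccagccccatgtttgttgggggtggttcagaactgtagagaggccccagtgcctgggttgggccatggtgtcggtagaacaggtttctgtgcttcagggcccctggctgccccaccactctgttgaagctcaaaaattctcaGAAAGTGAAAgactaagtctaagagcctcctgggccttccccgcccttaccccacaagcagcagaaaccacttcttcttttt
Ncf4 promoter: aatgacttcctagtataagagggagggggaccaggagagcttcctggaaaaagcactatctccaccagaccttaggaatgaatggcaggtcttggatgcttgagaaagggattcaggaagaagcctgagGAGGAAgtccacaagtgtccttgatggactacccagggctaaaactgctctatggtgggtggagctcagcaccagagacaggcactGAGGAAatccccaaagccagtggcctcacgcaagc
Rac2 promoter: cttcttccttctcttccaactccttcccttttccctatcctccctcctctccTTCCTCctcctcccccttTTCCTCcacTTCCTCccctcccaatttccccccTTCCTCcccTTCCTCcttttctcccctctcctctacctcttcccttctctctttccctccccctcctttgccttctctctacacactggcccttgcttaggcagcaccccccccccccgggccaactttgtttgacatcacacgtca

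Hvcn1 encodes the proton channel that accompanies the oxidase. It lies on the forward strand of chromosome 5 (122344867 to 122382736). Its levels were 1.92, 1.02 and 1.11 RPKM in Cort+/+ CL and 1.72, 2.66 and 1.48 RPKM in Cort+/+ MCAO libraries. Those of Cort-/- mice were 0.842, 1.35 and 0.989 RPKM in CL and 2.58, 2.07, 1.41, 2.82 and 2.11 RPKM in MCAO libraries. In Cort+/+ mice CL replicate 1 was above 2 of the 3 MCAO libraries, and in Cort-/- mice the hemispheres were separate by a narrow gap. The difference over both genotypes was 0.74 (standard error 0.19, limma adjusted p = 0.0569), which did not pass. It was 0.51 in Cort+/+ (adjusted p = 0.757) and 0.97 in Cort-/- mice (adjusted p = 0.0849). On all 14 libraries Hvcn1 passed over both genotypes with a pseudocount of 0.01 (adjusted p = 0.0497), with a filter on mean RPKM (0.0261) and with limma voom on the recovered reads (0.0164). With 1 library left out it passed without Cort+/+ CL replicate 1, Cort+/+ MCAO replicate 4 or Cort-/- MCAO replicate 3, with an adjusted p down to 0.0233.

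Nox4, the catalytic protein that works without cytosolic subunits, lies on the forward strand of chromosome 7 (86895304 to 87047918). Its levels were 0.0209, 0.0220 and 0.0543 RPKM in Cort+/+ CL and 0.0493, 0.0993 and 0.0573 RPKM in Cort+/+ MCAO libraries. The Cort-/- libraries had 0.0441, 0.0914 and 0.0626 RPKM in CL and 0.151, 0.0408, 0.0863, 0.164 and 0.0991 RPKM in MCAO libraries. The hemispheres overlapped in both genotypes. Nox4 rested on 3 to 27 reads per library, the fewest of the 7 genes, which limits how small a change could be seen. The difference over both genotypes was 0.32 (95% interval -0.019 to 0.67, limma adjusted p = 0.375).

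By level, the 7 genes held one order in the CL hemispheres of both genotypes, with Cyba highest, then Ncf1, Hvcn1, Rac2, Ncf4, Cybb and Nox4. Each gene was above the next in 3 of 3 libraries, although some ranges overlapped. Those of Hvcn1 and Rac2 overlapped each other in both genotypes. In Cort+/+ mice those of Cyba and Ncf1, and of Ncf1 and Hvcn1, also did, and in Cort-/- mice those of Rac2 and Ncf4. In MCAO hemispheres the order differed at a single place. Rac2 was above Hvcn1 in 2 of 3 Cort+/+ and 5 of 5 Cort-/- libraries, with overlapping ranges. Nox4 was lowest in every group, with a mean of 0.0324 RPKM in Cort+/+ CL and 0.108 RPKM in Cort-/- MCAO hemispheres, where Cyba had means of 5.35 and 14.8 RPKM.

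Within the groups the same libraries were mostly highest or lowest for the subunits other than Nox4. Within the MCAO groups, Cort+/+ replicate 3 held the highest level of all 7 genes and Cort+/+ replicate 4 the lowest of 6, all but Nox4. Among the Cort-/- MCAO libraries replicate 1 was highest for 5 and replicate 4 for the other 2, while replicate 3 was lowest for the 6 other than Nox4. Cort-/- CL replicate 2 was highest for all 7 and Cort+/+ CL replicate 1 for 5. The libraries that were lowest in MCAO, Cort+/+ replicate 4 and Cort-/- replicate 3, also held the fewest reads of their groups (31206705 and 25989843). The summed RPKM of the 10 monocyte and macrophage markers was 16.7 in Cort+/+ CL replicate 1 against 6.94 and 5.49 in the other CL libraries of that genotype. It was 14.3 in Cort-/- CL replicate 2 against 8.70 and 7.66, and 60.2 in Cort-/- MCAO replicate 1 against 18.9 to 33.1. Most of these sums was Lyz2, with 12.3 RPKM in Cort+/+ CL replicate 1, 9.37 in Cort-/- CL replicate 2 and 46.7 in Cort-/- MCAO replicate 1. The part of depth or of these markers in the order of the libraries was not tested.

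Between genotypes none of the 7 passed limma in CL hemispheres, where 0.0152% of all genes were called, nor in MCAO hemispheres, where 0.0174% were. No member had an unadjusted p under 0.05 in either comparison, and limma voom on the recovered reads called none. In MCAO hemispheres all 7 differences were positive (higher in Cort-/- mice), from 0.17 for Hvcn1 to 0.41 for Cybb, with unadjusted p-values from 0.207 to 0.513. The subunits other than Nox4 moved together within groups, with r from 0.76 (Ncf1 and Ncf4) to 0.979 (Cyba and Ncf1). The 7 signs are therefore not independent of each other. The MCAO mean of Cybb, for example, was 0.667 ± 0.371 RPKM (SD, n = 3) without and 0.903 ± 0.415 RPKM (SD, n = 5) with the Cort deletion. The 95% intervals reached from -0.43 to 1.23 over the 7 genes. In CL hemispheres 5 of the 7 were positive, with Ncf4 at 0.46 and Hvcn1 at -0.29 as the ends. The response to MCAO differed between genotypes for none of the 7 by the interaction term of the model (0.00217% of all genes called, 0 of 7 with an unadjusted p under 0.05, 0 with limma voom), with differences from -0.15 for Ncf4 to 0.47 for Hvcn1 and 95% intervals reaching from -1.12 to 1.43. A call in Cort-/- and not in Cort+/+ mice thus does not show that the responses differed.

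**Figure D2:**
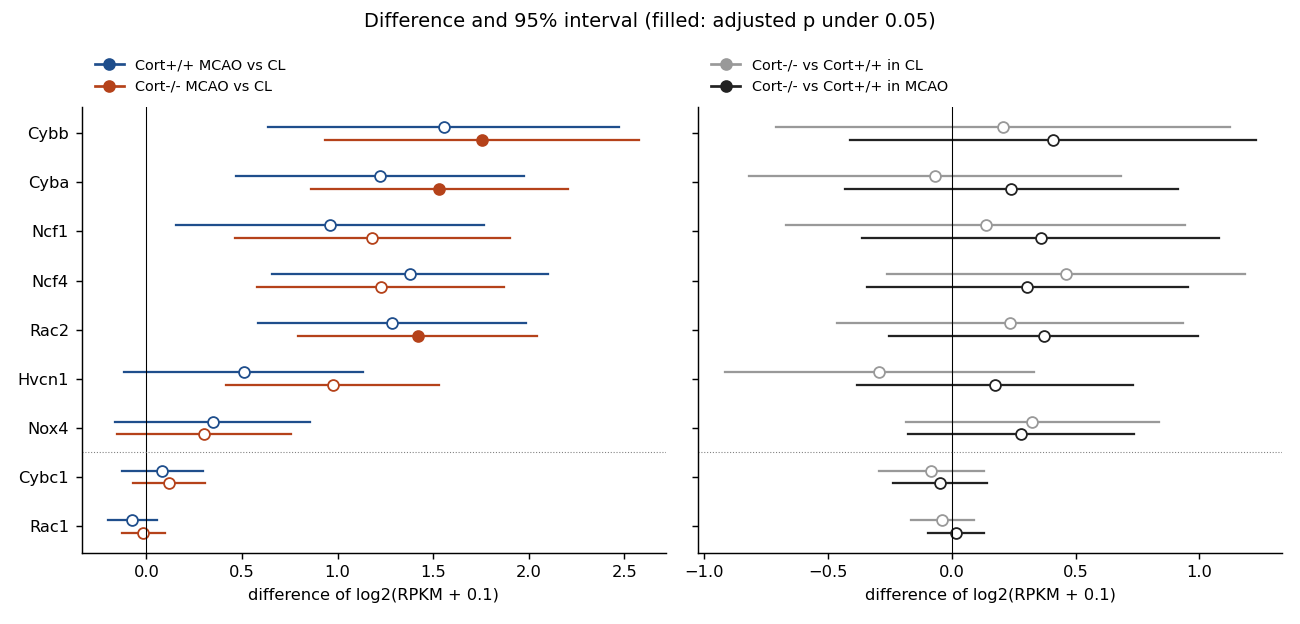
Differences of log2(RPKM + 0.1) with 95% intervals for the 7 oxidase genes and, under the dotted line, Cybc1 and Rac1, on the left for MCAO against CL hemispheres in each genotype and on the right for Cort-/- against Cort+/+ mice in each hemisphere. Filled points have an adjusted p under 0.05. On the right all intervals include 0, and on the left those of Rac1 and Cybc1 lie close to it.

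The size of the rise was compared between subunits with the log2 ratio of their RPKM values within each library, which takes out what the genes of a library share. The change of each ratio from CL to MCAO, averaged over genotypes, was set against all 1120 rearrangements of hemisphere labels within genotypes (exact two-sided permutation test, 21 pairs, adjusted over the pairs). This comparison was chosen after the levels had been seen. Like the limma model, it takes the libraries as independent, although CL and MCAO libraries may share a mouse. Its p-values hold only under that assumption. Cybb rose more than each of the other 6 genes, by 0.78 against Cyba, 1.08 against Ncf1, 1.39 against Hvcn1, 0.73 against Rac2, 0.71 against Ncf4 and 1.29 against Nox4. The exact permutation adjusted p was 0.00313 for the first 3 pairs, whose p of 0.000893 is the smallest that this design allows, and 0.00804, 0.0150 and 0.0204 for the others. Within the membrane core, the Cyba to Cybb ratio was 40.8, 36.6 and 33.8 in Cort+/+ CL libraries and 19.7, 16.9 and 25.1 in Cort+/+ MCAO libraries. In Cort-/- mice it was 29.0, 23.6 and 32.3 in CL and 13, 18, 22.2, 18.3 and 16.0 in MCAO libraries. Every MCAO library thus held less Cyba for each Cybb than any CL library of its genotype.

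The change of Hvcn1 was smaller than that of the called subunits other than Ncf1. The ratio to Hvcn1 changed by 0.60 for Cyba, 0.66 for Rac2 and 0.67 for Ncf4 (exact permutation adjusted p = 0.00313, 0.00313 and 0.0104), and by 0.31 for Ncf1 (adjusted p = 0.0593). Ncf1, in turn, rose less than Cyba by 0.30 and less than Rac2 by 0.35 (exact permutation adjusted p = 0.00313 and 0.00937). Rac2, Ncf4 and Cyba could not be told apart from each other, with changes in their ratios of 0.016 to 0.071 and exact permutation adjusted p-values of 0.661 to 0.936. With 1 library left out, each ratio change of the pairs that passed kept its sign, and that of Cybb to Cyba lay between 0.72 and 0.86.

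**Figure D3:**
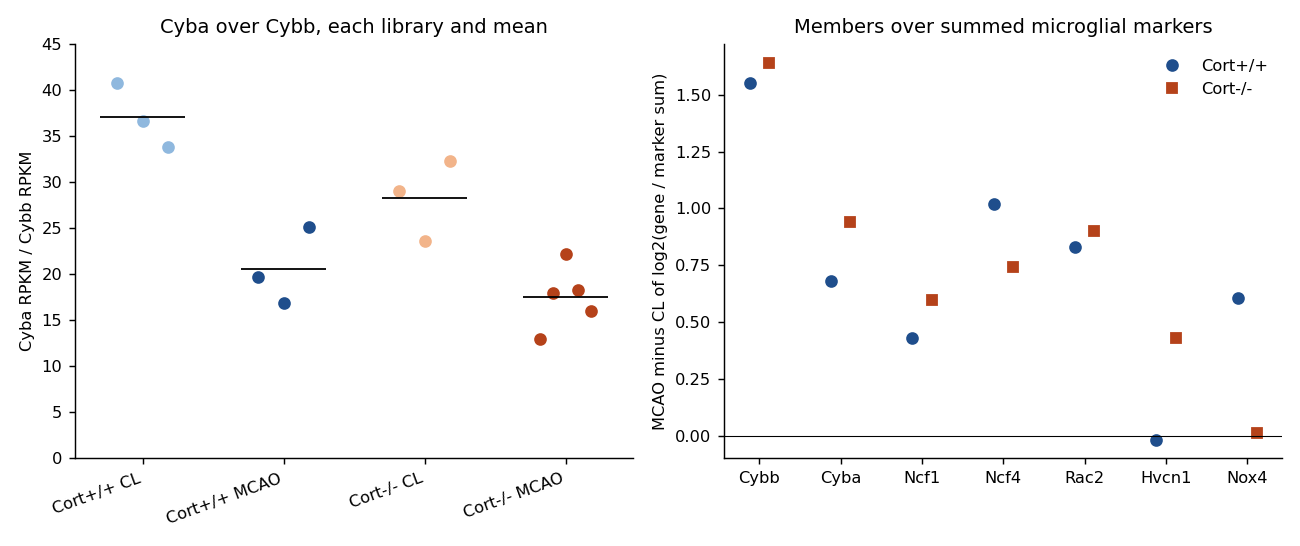
Left, ratio of Cyba RPKM to Cybb RPKM in each library (points) with group means (lines), which fell from 33.8 or more to 25.1 or less in Cort+/+ mice and from 23.6 or more to 22.2 or less in Cort-/- mice. Right, mean change from CL to MCAO in the log2 ratio of each gene to the summed RPKM of 8 microglial markers, by genotype, where Cybb stood at 1.55 and 1.64.

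Of the 11 other oxidase genes examined, 0 were called higher and 0 lower by limma over both genotypes, 0 had an unadjusted p under 0.05, and limma voom on the recovered reads called 0. Among them, 7 (Nox1, Nox3, Noxa1, Duox1, Duox2, Duoxa1 and Duoxa2) had no group mean above 0.0409 RPKM and at most 16 reads in a library. Any change in them was not detectable at this depth, and the 0.1 RPKM added to each value holds their differences near 0. The other 4 were Rac1, Cybc1, Noxo1 and Poldip2. Rac1, the widely expressed relative of Rac2, had means of 60.8 to 64.1 RPKM over the 4 groups and a difference of -0.05 (95% interval -0.13 to 0.04, adjusted p = 0.676). Cybc1, a chaperone of the membrane core, had means of 7.46 to 8.37 RPKM and a difference of 0.10 (95% interval -0.042 to 0.24, adjusted p = 0.547). The differences of these 4 lay between -0.19 (Noxo1) and 0.10 (Cybc1).

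Genes that act on the oxidase from upstream were taken from a list of 15 receptors, kinases, exchange factors and other signalling proteins, of which 10 were called higher over both genotypes and none lower, with a median difference of 0.88. The largest were Clec7a (2.25, limma adjusted p = 0.00077), a fungal glucan receptor, Dock2 (1.36, adjusted p = 0.00252), an exchange factor for Rac, Itgb2 (1.30, adjusted p = 0.00473), the shared chain of leukocyte integrins, and Vav1 (1.26, adjusted p = 0.0028), another exchange factor. Of 13 genes that remove superoxide and peroxide, 6 were higher and none lower, with a median of 0.13. The 4 of largest change were Prdx6 (0.46), Gpx1 (0.42), Sod3 (0.33) and Prdx1 (0.33), with limma adjusted p-values of 0.00702, 0.00702, 0.0303 and 0.00216. These genes reduce peroxides, except Sod3, which dismutates superoxide outside cells. Each of these changes was smaller than that of any of the 5 called subunits.

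Among marker genes of cell types, 6 of 8 microglial markers were called higher over both genotypes, with a median difference of 0.61. The largest were Gpr34 (0.80), Tmem119 (0.68), Cx3cr1 (0.66) and Csf1r (0.65), with limma adjusted p-values of 0.0283, 0.0102, 0.00536 and 0.00341. Their summed level was 57.3 to 61.3 RPKM in Cort+/+ CL and 72.7 to 97.5 RPKM in Cort+/+ MCAO hemispheres, and 56.5 to 64.8 and 79.2 to 109 RPKM in Cort-/- mice. Of 10 monocyte and macrophage markers 2 were called higher, Plac8 (1.82, adjusted p = 0.0153) and Lyz2 (1.45, adjusted p = 0.0271), with a median of 0.68 over the list. The summed level of the 10 markers was 5.49 to 16.7 RPKM in Cort+/+ CL, 12.3 to 31.4 in Cort+/+ MCAO, 7.66 to 14.3 in Cort-/- CL and 18.9 to 60.2 RPKM in Cort-/- MCAO hemispheres. Lyz2 alone had means of 7.06, 15.3, 6.78 and 23.4 RPKM in the same order. Of 12 neutrophil markers 1 was called, Csf3r (0.52, adjusted p = 0.00475), with a median of 0.06 and sums of 5.57 to 7.81, 6.52 to 8.75, 7.12 to 13 and 7.90 to 20.3 RPKM in the same order. Elane was at 0 in all Cort+/+ CL libraries. Several of these 12 were near 0 reads, Ly6g and Elane with at most 2 and Mpo with at most 5 in a library. There the 0.1 RPKM added holds differences near 0. S100a8, S100a9 and Mmp9 held at least 13, 15 and 36 reads and were not called either. From CL to MCAO, their means went from 1.02 to 1.37, 2.00 to 1.80 and 0.507 to 0.474 RPKM in Cort+/+ mice. In Cort-/- mice they went from 2.04 to 2.38, 3.96 to 4.15 and 0.628 to 0.608 RPKM. Csf3r had CL means of 2.59 (Cort+/+) and 2.23 RPKM (Cort-/-), where Ly6g had 0.0297 and 0.0109 RPKM. Which cells the Csf3r reads came from was not tested.

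Of 10 lymphocyte markers 1 was lower (Cd4, -1.38) and none higher. Cd4 had CL means of 4.09 (Cort+/+) and 3.59 RPKM (Cort-/-). The T cell genes Cd3d, Cd3e and Cd8a had no group mean above 0.0306 RPKM and at most 5 reads in a library. Which cells the Cd4 reads came from was not tested, and a change in lymphocyte number cannot be read from them. In the other lists, 2 of 8 endothelial (Cldn5 and Cdh5), 1 of 8 pericyte and smooth muscle (Tagln), 1 of 7 fibroblast (Dcn), 0 of 7 choroid plexus, 3 of 7 astrocyte (Gfap, Aqp4 and Aldh1l1) and 0 of 7 oligodendrocyte markers were called higher. Among 8 neuronal markers 1 was lower (Drd1) and none higher. The part of cell numbers in the rise of the subunits was not tested, and the ratios that follow cannot separate it from RNA per cell.

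**Figure D4:**
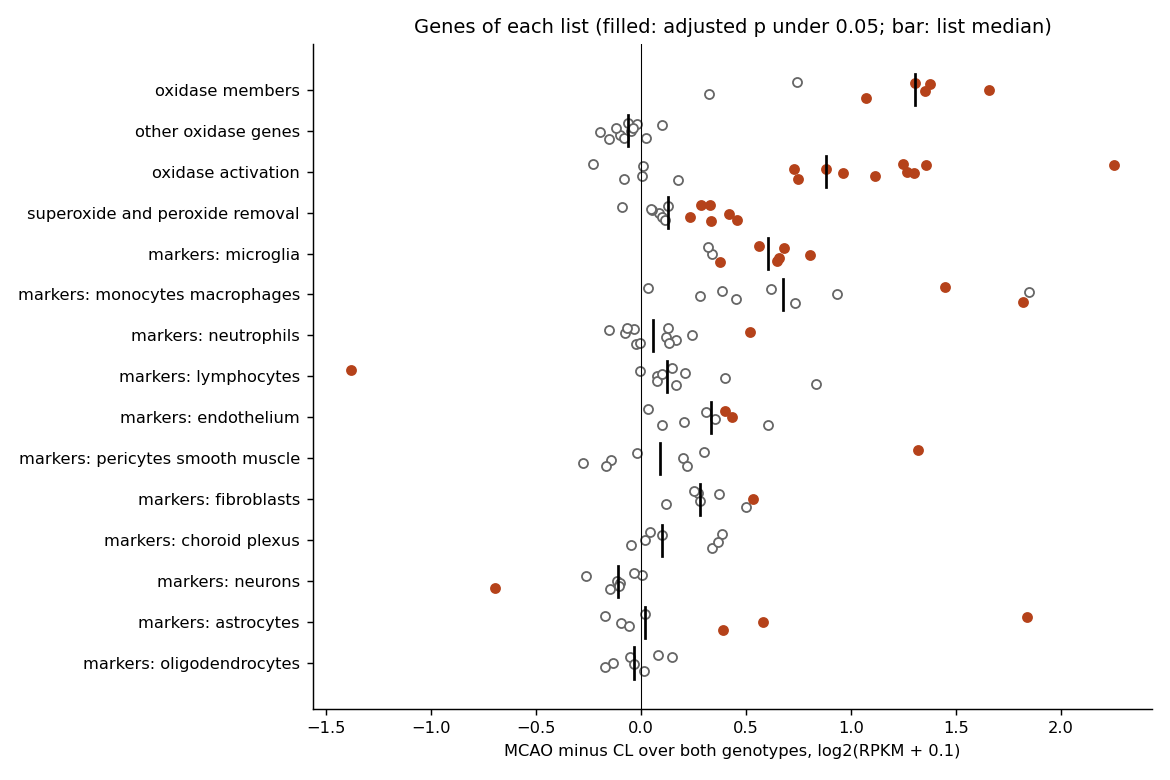
Difference between MCAO and CL hemispheres over both genotypes on the log2(RPKM + 0.1) scale for each gene (points, filled where the adjusted p is under 0.05) of the lists named on the left, with list medians as bars. The oxidase genes had a median of 1.30, the other oxidase genes, 7 of 11 of them at or near 0 reads, of -0.06 and the microglial markers of 0.61.

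Set against the summed RPKM of the 8 microglial markers in the same library, 4 of the 7 subunits rose more than the markers (exact two-sided permutation test over 1120 rearrangements, adjusted over the 7 genes, chosen after the levels had been seen). The log2 ratio rose by 1.59 for Cybb, 0.87 for Rac2, 0.88 for Ncf4 and 0.81 for Cyba, with exact permutation adjusted p-values of 0.00625, 0.00626, 0.00833 and 0.00938. For Cybb the ratios of the hemispheres did not overlap in either genotype, and for Rac2, Ncf4 and Cyba they overlapped in 1 of the 2. The change was 0.52 for Ncf1, 0.31 for Nox4 and 0.21 for Hvcn1 (exact permutation adjusted p = 0.0825, 0.396 and 0.385), and these 3 did not pass. Libraries were again taken as independent. The marker sum is itself made of RNA levels, and P2ry12 and Siglech in it were not called over both genotypes. The 15 upstream genes also had a median difference above that of the markers (0.88 against 0.61). A larger change than the microglial markers was thus not particular to the subunits. The summed level of the 10 monocyte and macrophage markers was also higher after MCAO. It was 5.49 to 16.7 RPKM in CL and 12.3 to 31.4 RPKM in MCAO hemispheres of Cort+/+ mice. In Cort-/- mice it was 7.66 to 14.3 RPKM in CL and 18.9 to 60.2 RPKM in MCAO hemispheres. Whether any subunit rose more than the monocyte and macrophage markers was not tested.

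Other genes whose levels went up and down with a subunit across the 14 libraries were sought among the 15063 genes whose mean reached 1 RPKM, after the mean of each group was subtracted. As a description, since the highest of many values were picked and the points share library and depth, the most like Cybb was Ctsz (Pearson r = 0.987, Spearman rho = 0.960), a lysosomal protease, followed by Cd9 and Grn. Cyba was followed most closely by Tlr13 (r = 0.991, rho = 0.978), Man2b2 and Tlr2. For Rac2 they were Alox5ap (r = 0.995, rho = 0.987), which serves leukotriene synthesis, Hmox1 and C1qb. Ncf1 went with D17H6S56E-5 (r = 0.986, rho = 0.952), Tmem176a and Cyba, and Ncf4 with Edn1 (r = 0.966, rho = 0.952), Ccdc86 and Rpl28. Hvcn1 went with Aspg (r = 0.976, rho = 0.952), Serpina3n and Serping1, the latter 2 being protease inhibitors, and Nox4 with Pmp22 (r = 0.938, rho = 0.859), Pop4 and Npas3. Without the 2 libraries farthest from the median of the subunit, these first r values were 0.928 to 0.993.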

How the data were processed

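RNA of 14 brain hemispheres was sequenced from libraries made with a stranded mRNA kit. The authors used reanalyzerGSE v3.0.0 for alignment to GRCm39 and for counting on genes (GENCODE M28 in the methods) and deposited RPKM values for each library, without pooling replicates. Whether counting used strand, the gene lengths and the library sizes are not given in the sources used here. Cybb, Cyba, Ncf1, Rac2 and Hvcn1 overlap genes of the opposite strand, whose reads may be shared if strand was not used.

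Whole reads were recovered by a search for the lengths and library sizes under which each value is a whole number, and 100% of the 495656 values above 0 came back within 0.01 of a whole read. Of the 46904 listed genes, 46792 matched GENCODE M39, the source of positions and promoters.

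Genes above 0 in at least 2 libraries (46102) were fitted with limma on log2(RPKM + 0.1), in 1 model of the 4 groups with a variance trend. Named genes were all 7 subunits with Rac1 and Cybc1, of each list at most the 4 of largest change among those called over both genotypes, and the 3 genes most like each subunit. Genes that were not called were also named, outside this rule, where they bear on how a list is read. Some listed genes are not reported here. Members, lists and motifs were chosen with earlier results of these data known. Ratios between genes were added after the data were seen. The fits and the read recovery were tested on simulated data. The software was limma 3.58.1 (under R 4.3.3), numpy 2.4.6, pandas 2.3.3, scipy 1.17.1 and matplotlib 3.10.9 (under Python 3.11.15).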

Additional observations from a re-analysis of the deposited data

How the results depend on the processing

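Alternatives were pseudocounts of 0.5 and 0.01, a mean of at least 0.5 RPKM, median ratio scaling, only the groups compared in the model, limma voom on recovered reads, a replicate block, and each of the 14 libraries left out in turn. Over both genotypes, 5 of the 7 subunits were called, and 4 to 6 with 1 library left out, where Cybb, Cyba, Ncf4 and Rac2 passed in all 14 fits. It was 6, Hvcn1 included, with a pseudocount of 0.01, with the filter on mean RPKM and with limma voom. In Cort-/- mice the count of 3 moved to 6 with limma voom and with the filter on mean RPKM, which tests fewer genes (17476) and leaves out Nox4, and to 2, without Cybb, with a pseudocount of 0.5 and with only the groups compared. With 1 library left out it ranged from 0 (without Cort-/- CL replicate 1 or 3, or Cort-/- MCAO replicate 1, 4 or 5) over 1 (without Cort-/- CL replicate 2) to 6 (without Cort-/- MCAO replicate 3). In Cort+/+ mice and between genotypes it was 0 in every alternative run. Over all genes, 5 were called in Cort+/+, 792 in Cort-/- mice and 1579 over both genotypes. These counts were 57, 1294 and 2148 with limma voom, and ranged from 3 to 160, 133 to 1191 and 941 to 1913 with 1 library left out. The cause of these moves was not tested beyond the number of genes and libraries. The authors, with edgeR, reported more genes within Cort+/+ and within Cort-/- mice than any of these fits called.

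Replicate numbers were not taken to pair the hemispheres, since same-numbered libraries had deviations correlated between -0.239 and 0.316 and 1 of 6 CL libraries correlated best with its own number. Libraries of other numbers correlated between -0.316 and 0.404, and whether some of these come from the same mouse was not tested. With the replicate block, 0 of the 7 passed over both genotypes and 0 in Cort-/- mice, and 0 of all genes did. Under the block the genotype difference in the response turned to -0.43 for Cybb, -0.42 for Cyba, -0.61 for Ncf1, -0.49 for Rac2 and -0.087 for Hvcn1, none of which had passed in the first place.

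Other turns of direction were all in genotype comparisons that did not pass. With a pseudocount of 0.5 the genotype difference in the response of Nox4 was 0.0062. With 1 library left out, that difference ranged from -0.196 to 0.553 for Cybb, -0.0100 to 0.584 for Cyba, -0.115 to 0.539 for Ncf1, -0.36 to 0.111 for Ncf4, -0.181 to 0.419 for Rac2 and -0.161 to 0.0869 for Nox4. The difference between genotypes in CL ranged from -0.0080 to 0.348 for Cybb, -0.267 to 0.234 for Cyba and -0.101 to 0.466 for Ncf1, and in MCAO from -0.0791 to 0.515 for Cyba. No alternative turned a difference between hemispheres. Depth limits Nox4, with at most 27 reads per library.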

Other observations

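In CL hemispheres the ratio of Cyba to Cybb was lower in each Cort-/- library than in any Cort+/+ library (23.6 to 32.3 against 33.8 to 40.8), whereas in MCAO hemispheres the genotypes overlapped (13 to 22.2 against 16.9 to 25.1). This was noticed after the values were seen, rests on as few as 19 Cybb reads in a CL library, and was not tested.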
